A study of Bos taurus with 27 samples.

Results

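The mitochondrial ribosomal proteins were examined as transcripts in pools of bovine blastocysts. Members were the genes whose symbol begins with MRPL or MRPS followed by a digit, and 78 of the 32637 genes in the count table met this rule, 49 named MRPL and 29 named MRPS. The 27 pools each held 2 Bos taurus blastocysts of the same stage and quality score. All were produced by in vitro fertilization with semen of 1 bull, from oocytes matured in medium with added fluid from preovulatory follicles, which the study graded as more or less mature. The labels do not say which follicular fluid, or which fertilization replicate, a pool belongs to. Groups were taken from the labels alone, so all pools were kept as 1 group, no treatments were compared, and treatment was a term in no fit. Its part in any relation across pools was not tested. Breed, oocyte donor and embryo sex are not in the labels, and because a pool is a mixture of whole embryos, fewer cells of a type and less RNA per cell cannot be told apart.

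The mitochondrial ribosome, or mitoribosome, is the ribosome inside the mitochondrial matrix. It translates the few proteins that the mitochondrial genome encodes, all of them core subunits of the respiratory chain and ATP synthase. Its ribosomal RNAs come from the mitochondrial genome, whereas its proteins are encoded in the nucleus, made in the cytosol and imported. The large subunit (MRPL proteins) forms peptide bonds and holds the exit tunnel, and the small subunit (MRPS proteins) binds the mRNA and decodes it. Some of the proteins have a counterpart in the bacterial ribosome and others are specific to mitochondria. The blastocyst is the stage at which an outer trophectoderm and an inner cell mass have formed and at which mitochondrial respiration is known to increase.

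The total count ranged from 10517606 to 44253564 per pool, with a median of 22293594. Abundance is given as CPM, a gene's count scaled to a library of 1e+06 counts by its pool's total. Counts came from reads at the 3′ ends of transcripts and were not divided by transcript length, so that the order of genes by CPM is not a strict order of transcript number. A gene was kept when 12 or more pools reached 1 CPM, which left 12310 retained genes. Trophectoderm keratins were abundant, with KRT8, a keratin of the outer epithelium, between 10633 and 26270 CPM. The listed trophectoderm transcription factors were far lower, with medians from 1.35 CPM (ELF5) and 3.62 CPM (CDX2) to 131.8 CPM (GATA3) and 220.8 CPM (TFAP2C). The epiblast marker POU5F1 was between 108.7 and 752.9 CPM and the hypoblast marker GATA6 was between 19.5 and 300.5 CPM. Of the lineage lists, 10 of 10 trophectoderm, 6 of 7 epiblast and 6 of 9 hypoblast markers in the table were retained, and FGF4 of the epiblast and SOX17, FOXA2 and GATA4 of the hypoblast were not, at medians of 0, 0, 0 and 0.896 CPM. Summed leukocyte markers reached 60.0 CPM at most.

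Nearly the whole set was detected in every pool. Of the 78 members, 77 were retained, and each of the 77 exceeded 1 CPM in all 27 pools. Mean abundance was at least 100 CPM for 61 of them. The exception was MRPS36 (chromosome 20, 10467519 to 10475679, ARS-UCD2.0), which had 0 counts in every pool. A count of 0 allows up to 3 counts, equal to between 0.0678 and 0.285 CPM depending on the pool, for counting error only. RPS23 and RPL37, cytosolic ribosomal proteins that every cell uses, were also at exactly 0 in every pool of this table, so a 0 is no evidence that a gene was not transcribed. MRPS36 bears a ribosomal symbol, but its product is known as a component of the 2-oxoglutarate dehydrogenase complex and not of the mitoribosome. Its flanking genes were detected, with CDK7, a cyclin-dependent kinase, at a median of 50.9 CPM and CENPH, a kinetochore protein, at a median of 36.8 CPM.

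The members together took a narrow share of the transcriptome. Their summed abundance was lowest in pool 33 at 11246 CPM, had a median of 12412 CPM and was highest in pool 32 at 13675 CPM, a 1.22-fold range. This was between 1.12 and 1.37% of all counts, or 128038 to 555471 reads per pool. The coefficient of variation (CV, the SD as a percentage of the mean) of the sum was 4.69% over 27 pools. This spread depended on scaling by column totals, with an SD of 579 CPM. The SD was 818 CPM with TMM scaling and 832 CPM with DESeq2 size factors. Pools 33, 14, 9, 5 and 38 were the lowest, between 11246 and 11548 CPM, and the next pool was at 11951 CPM. Pools 24 and 32 were the highest, at 13453 and 13675 CPM, with the next pool at 12891 CPM. Pools with abundant Y-linked transcripts (summed to over 10 CPM) and the other pools overlapped, with 11389 to 13675 CPM in the 18 former and 11246 to 12891 CPM in the 9 latter.

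The MRPL genes summed to between 7641 and 9389 CPM and the MRPS genes to between 3605 and 4285 CPM. The ratio of the MRPL sum to the MRPS sum had a median of 2.13 and stayed between 2.04 and 2.20 in the 27 pools (mean 2.13 ± 0.0458, SD), a CV of 2.15%. Because both sums come from the same library, this ratio does not depend on how libraries were scaled. It does depend on assignment. MRPS30 and MRPS18A carry small-subunit symbols although their products sit in the large subunit, and with both counted there the median ratio was 2.31. Without the most abundant gene of each subunit it was 2.17.

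**Figure D1:**
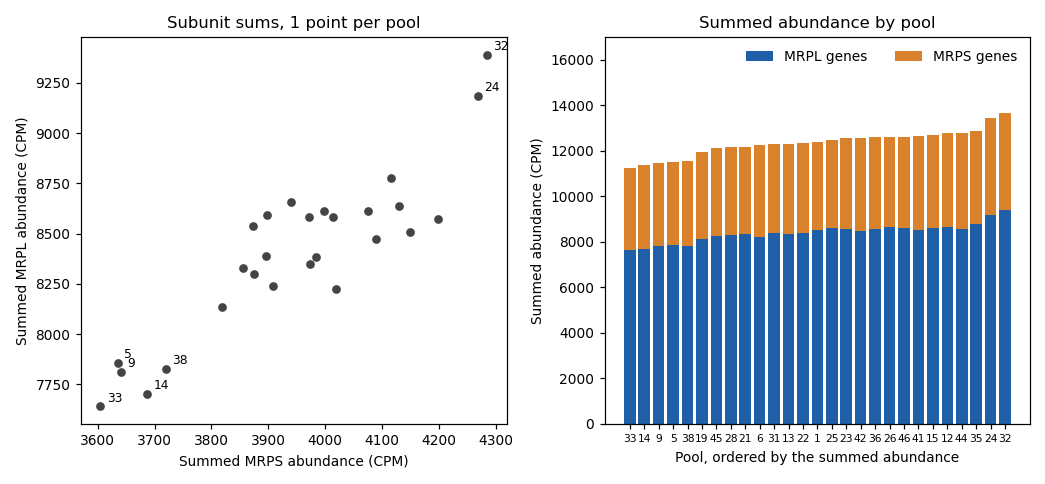
Left, summed abundance of the 49 MRPL genes (CPM) against that of the 28 retained MRPS genes (CPM), 1 point per pool, with the 5 lowest and 2 highest pools numbered; right, the same sums stacked as bars from 0 for each pool in order of their total. Pools 33, 14, 9, 5 and 38 sit below the others on both axes and pools 24 and 32 above them, while the ratio stays between 2.04 and 2.20.

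The most abundant member was MRPL11, a protein of the stalk base of the large subunit where translation factors bind (chromosome 29, 44481514 to 44484863). It was at 338.8 CPM in the lowest pool, 400.4 CPM in the median pool and 510.2 CPM in the highest. MRPL55 followed at 278.2, 351.1 and 423.2 CPM in the lowest, median and highest pool. Both had narrow ranges, 1.51-fold for MRPL11 and 1.52-fold for MRPL55, which overlapped each other.

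MRPL23, which lies near the exit of the peptide tunnel, had a higher mean (318.8 CPM) than MRPL39 (308.7 CPM) but a lower median, 296.7 against 311.6 CPM. MRPL41 and MRPL21, also of the large subunit, had medians of 294.3 and 292.1 CPM. The highest small-subunit genes were MRPS16 (236.4, 276.5 and 340.5 CPM in the lowest, median and highest pool) and MRPS10 (234.7, 271.6 and 334.7 CPM). The ranges of these 6 genes overlapped, so their order rests on means that differ by less than the spread among pools.

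At the other end, MRPS2 (chromosome 11, 105822041 to 105825257) was at 7.16 CPM in the lowest pool, 12.8 CPM in the median pool and 20.9 CPM in the highest. MRPS2 is a small-subunit protein of bacterial ancestry. MRPL38 had 10.2, 17.4 and 27.5 CPM, MRPL33 15.6, 23.8 and 29.0 CPM, and MRPS9 16.2, 25.8 and 34.4 CPM in the lowest, median and highest pool. The next were MRPL57, a short mitochondrion-specific protein, with a median of 41.2 CPM and MRPS35 with a median of 46.8 CPM. The highest pool of each of the 4 lowest genes was below the lowest pool of MRPL55 or MRPL11, although all 4 proteins are constituents of the same particle. MRPL38 shares 51.9% of its span with an annotated lncRNA, LOC112442714, that had a median of 0 CPM. In all, 23 members overlapped another annotated gene, and whether reads of overlapping genes were told apart by strand is not given in the sources used here.

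**Figure D2:**
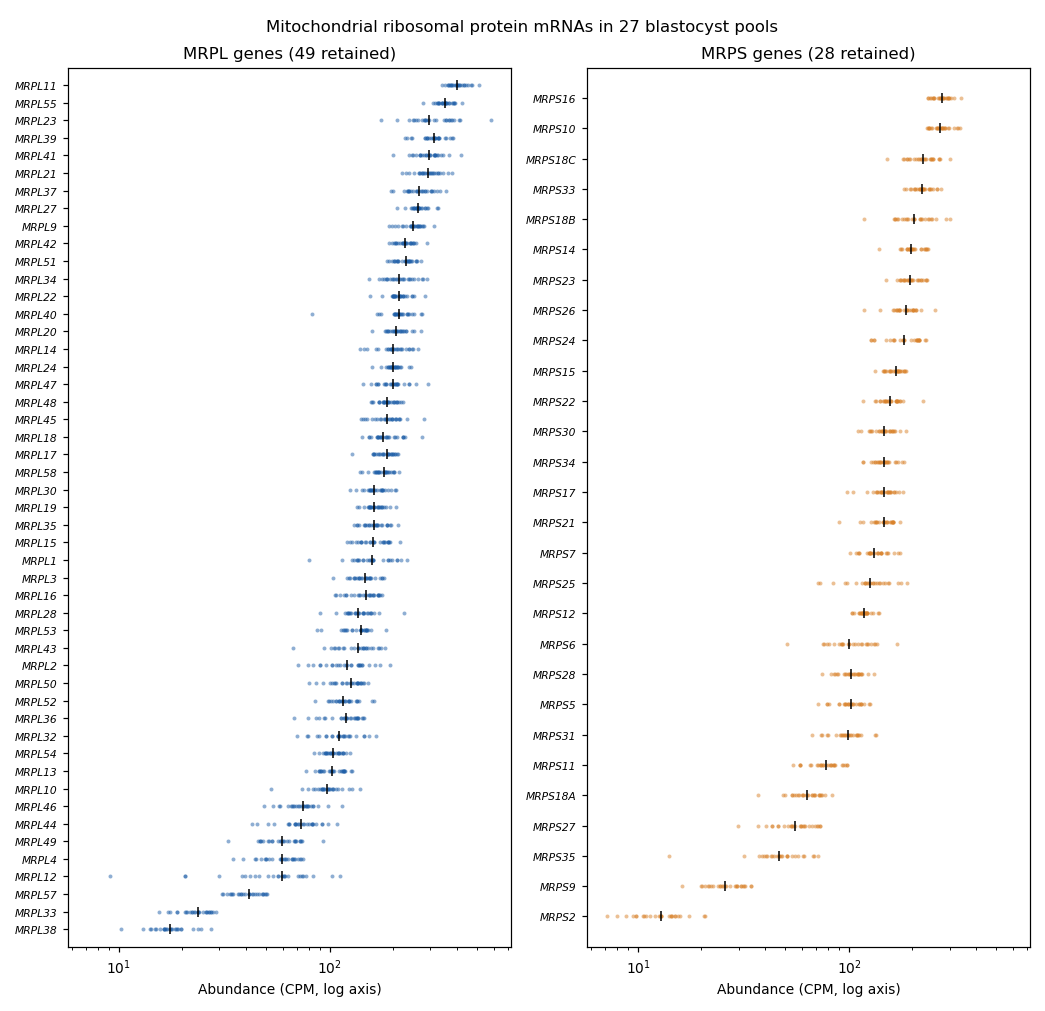
Abundance of each retained member in each of the 27 pools (CPM, log axis), MRPL genes on the left and MRPS genes on the right, ordered by mean; dots are pools and the black tick is the median pool. Medians run from 12.8 CPM (MRPS2) to 400.4 CPM (MRPL11), and most rows are narrow beside the distance between rows, with MRPL12 the widest.

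Levels overlapped between members with a bacterial counterpart and those classed as specific to mitochondria. The 46 retained members with a bacterial counterpart had a median of mean abundances of 162.9 CPM and the 31 mitochondrion-specific members 146.2 CPM, with ranges of their means that overlapped (12.96 to 404.6 and 17.8 to 308.7 CPM). Placed by structure, the large subunit had medians of 165.3 CPM for 30 bacterial-type and 134.7 CPM for 21 mitochondrion-specific genes. In the small subunit the order was the opposite, 139.2 CPM for 16 and 152.1 CPM for 10 genes. These differences were not tested.

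The 3 MRPS18 paralogs, which arose from 1 bacterial gene, occupy different places in the particle. In the classes above only MRPS18C was counted as having a bacterial counterpart. MRPS18A and MRPS18B were counted as mitochondrion-specific, so that class is not one of separate ancestry for every gene. MRPS18C and MRPS18B, both small-subunit proteins, had medians of 224.0 and 203.3 CPM, with ranges of 152.2 to 300.6 and 117.4 to 300.9 CPM. MRPS18A, in the large subunit, was lower, at 37.1, 63.4 and 82.8 CPM in the lowest, median and highest pool. Its highest pool was below the lowest pool of either paralog. MRPS18C shares 59.1% of its span with ABRAXAS1, a gene of DNA repair. MRPS30, the other gene whose symbol and place differ, was at 110.5, 146.4 and 186.8 CPM.

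The 78 members were spread over 27 chromosomes, with 9 on chromosome 11, 8 on chromosome 19 and 0 on X. MRPL46 and MRPS11 were the only pair of members within 50000 bases of each other, separated by 75 bases on chromosome 21. Their levels overlapped, with medians of 74.8 CPM for MRPL46 and 77.6 CPM for MRPS11 (ranges 48.6 to 114.7 and 54.0 to 98.2 CPM).

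Members differed less among pools than most transcripts. Their median CV over 27 pools was 14.8%, against 32.5% for all 12310 retained genes and 23.2% for the 6088 retained genes within the members' range of abundance. The genes in that range were not matched in abundance. The median of their means was 43.5 CPM, against 158.0 CPM for the members. The part of the CV beyond counting error had a median of 14.5% in the members and 31.7% in all retained genes. Counting error here is that of reads, and the sampling of molecules before amplification is not in it. The fold between the highest and the lowest pool had a median of 1.84 in the members, 4.18 in all retained genes and 2.69 in the genes within that range. The tenth of retained genes with the lowest CV (16.0% or less) held 53 of the 77 members, or 68.8%, beside 15.7% of the genes within that range. Only MRPL12 exceeded the median CV of all retained genes. The members were not alone in this, since the nuclear-encoded subunits of oxidative phosphorylation (OXPHOS) had a median CV of 14.5% and the cytosolic ribosomal proteins 13.2%.

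**Figure D3:**
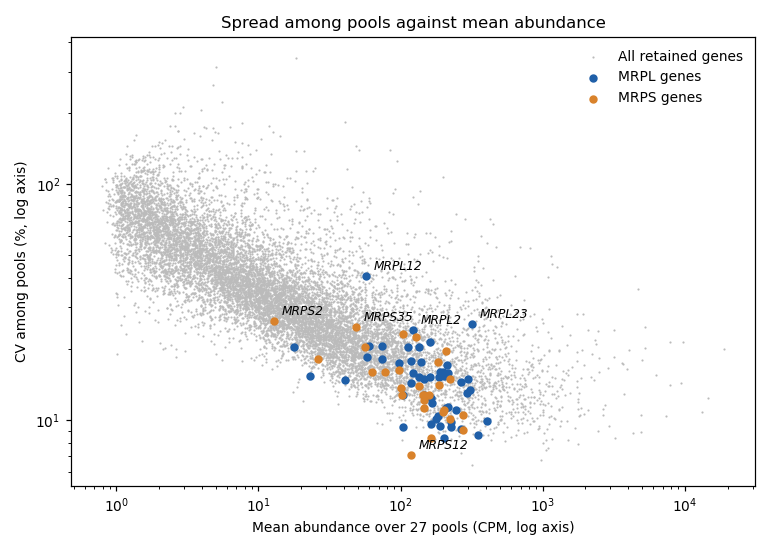
CV among the 27 pools (%, log axis) against mean abundance (CPM, log axis) for the 12310 retained genes (grey), with MRPL genes in blue and MRPS genes in orange. Most members lie along the lower edge of the cloud, and MRPL12 (40.8%) lies well above the rest.

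The steadiest member was MRPS12, a protein of the decoding centre, with a CV of 7.07% and 103.3 CPM in the lowest pool, 118.5 CPM in the median pool and 138.1 CPM in the highest. MRPS15 (CV 8.34%), MRPL24 (8.35%) and MRPL55 (8.65%) were the next. In these genes counting error was a minor part, since the CV beyond it was 6.77% for MRPS12 and 8.16, 8.20 and 8.56% for the others in the same order.

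MRPL12 varied the most. It encodes the stalk protein of the large subunit, which recruits translation factors and is also described as a partner of the mitochondrial RNA polymerase. It was at 9.10 CPM in pool 21, at 59.3 CPM in the median pool and at 111.6 CPM in pool 32, a 12.3-fold range with a CV of 40.8%. Pools 38 and 31 were also low, at 20.5 and 20.7 CPM, and pool 24 was high, at 102.1 CPM. Without pool 21 the range was 5.44-fold and the CV 36.8%. The 35036 reads of MRPL12 over all pools make the counting error of reads small, and the CV beyond it was 40.7%. The error from sampling molecules before amplification was not measured. Its immediate neighbours on chromosome 19, SLC25A10, a mitochondrial dicarboxylate carrier, and HGS, an endosomal sorting protein, had ranges of 22.3 to 100.7 and 7.11 to 29.7 CPM.

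Another 4 members had more than a 3-fold range, and in each the range was under 3-fold once 1 pool was left out. MRPS35 was at 14.1 CPM in pool 31 against 31.7 CPM in the next lowest pool, and its range without pool 31 was 2.25-fold in place of 5.06-fold. MRPL23 was at 580.1 CPM in pool 31 and at 416.3 CPM in the next highest pool, which reduced its range from 3.30-fold to 2.37-fold. MRPL40 was at 82.8 CPM in pool 9 and at 167.8 CPM in the next lowest pool, which reduced a 3.31-fold range to 1.63-fold. MRPS6 was at 51.0 CPM in pool 28 and at 75.6 CPM in the next lowest pool, which reduced a 3.30-fold range to 2.23-fold. The 4 members with the highest CV beyond counting error were MRPL12, MRPL23, MRPS35 and the least abundant member, MRPS2 (25.5%). MRPL2 followed at 24.0%.

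Extreme values gathered in a few pools. Pool 9 was the lowest of the 27 pools for 13 of the 77 members and pool 32 the highest for 14. For all retained genes these pools were the lowest in 11.6% and the highest in 7.25%, beside 16.9 and 18.2% of the members. Pool 31 was the lowest for 11 members (14.3%) and for 17.9% of all retained genes, so its low values were no more frequent among members. Pool 33, with the lowest sum, was the lowest for 10 members (13.0%) and for 3.02% of all retained genes.

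The relation between the subunits was examined next, because both subunits join in 1 particle. Over 27 pools the MRPL sum rose with the MRPS sum (Spearman rho = 0.77, permutation p = 1e-05, the smallest that 100000 permutations can give, adjusted p = 0.00016; Pearson r of log2 sums = 0.90, permutation p = 1e-05, adjusted p = 5.33e-05). Adjusted p values are over the 16 relations computed. Without the 2 pools farthest from the median, r was 0.87. In the 18 pools with abundant Y-linked transcripts rho was 0.73 (permutation adjusted p = 0.00448). The correlation is of shares of the same total, and other batches such as the fertilization replicate could not be separated.

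Single genes tracked each other far less than the sums did. The median Spearman rho over the 1372 pairs of 1 MRPL and 1 MRPS gene was 0.09, and 64.7% of these pairs were positive. Over the 2926 pairs of members it was also 0.09, beside 0.03 for pairs of genes within the members' range of abundance. It was 0.29 for pairs of OXPHOS subunits and 0.33 for pairs of cytosolic ribosomal proteins. Pairs of a member and an OXPHOS subunit had a median of 0.12, and pairs of a member and a cytosolic ribosomal protein 0.08. Members thus tracked each other no more closely than they tracked OXPHOS subunits. Against the summed abundance of the other members, 71 of the 77 members had a positive rho, with a median of 0.25. The range ran from -0.14 for MRPL13 to 0.65 for MRPS18C. These values share libraries and depth and are given as descriptions over 27 pools.

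Each gene was then fitted on the log2 sum of the other subunit by edgeR's quasi-likelihood test over all 12310 retained genes. The slope is the log2 change of the gene per log2 unit of the sum, so that a gene in proportion to the sum has a slope of 1. Of the 49 MRPL genes, 45 had a positive slope on the MRPS sum, with a median of 0.90, and 0 passed an adjusted p of 0.05. Of all retained genes, 48.4% had a positive slope, the median slope was -0.06, and 0.154% passed with a positive and 0.138% with a negative slope. Positive slopes on the MRPS sum were not particular to the MRPL genes. They were found in 79 of 83 OXPHOS subunits (median slope 1.15) and 69 of 80 cytosolic ribosomal proteins (median slope 0.79). At an unadjusted p of 0.05 or less, 15 of the 49 MRPL genes had a positive slope, beside 5.67% of all retained genes, and DESeq2 called 4 MRPL genes and 0.764% of all retained genes with a positive slope. The count of 0 depended on the settings. With TMM or DESeq2 size factors 6 MRPL genes passed, beside 1.38% of all retained genes under either. Without the filter 4 passed, beside 350 of all 24638 genes fitted that passed with a positive slope. With the log2 total count as a covariate 4 passed, beside 37 of the 12310 retained genes. On simulated counts for this comparison, 0 of 100 genes with a slope of 1 and 23 of 100 genes with a slope of 3 were recovered, so a slope of 1 on the MRPS sum was not detectable gene by gene, that sum spanning only a 1.19-fold range.

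The steepest MRPL slopes belonged to MRPL12, at 4.07 ± 1.63 (SE, edgeR adjusted p = 0.274), and MRPL2, at 3.30 ± 0.79 (edgeR adjusted p = 0.0559). MRPL2, which lies at the peptidyl transferase centre, was at 70.7, 120.2 and 193.1 CPM in the lowest, median and highest pool, with pool 5 the lowest and pool 32 the highest. MRPL47 had a slope of 2.20 ± 0.53 (edgeR adjusted p = 0.0573) and MRPL28 a slope of 2.18 ± 0.58 (edgeR adjusted p = 0.0716). Both were also highest in pool 32. The lowest slopes were those of MRPL13 at -0.39 ± 0.57, MRPL39 at -0.37 ± 0.58, MRPL3 at -0.29 ± 0.56 and MRPL19 at -0.04 ± 0.47, each within 1 SE of 0. Those nearest 0 were MRPL19, MRPL42 at 0.06 ± 0.45, MRPL55 at 0.13 ± 0.42 and MRPL24 at 0.14 ± 0.43.

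Of the 28 MRPS genes, 25 had a positive slope on the MRPL sum, with a median of 0.75, and 0 passed an adjusted p of 0.05 in edgeR. The share of positive slopes in all retained genes was 48.6%, and 0.357% passed with a positive and 0.609% with a negative slope. On this sum too, 77 of 83 OXPHOS subunits (median slope 1.17) and 69 of 80 cytosolic ribosomal proteins (median slope 0.78) had positive slopes. With an unadjusted p of 0.05 or less, 8 MRPS genes had a positive slope, beside 6.05% of all retained genes, and DESeq2 called 2 MRPS genes and 0.926% of all retained genes with a positive slope. With TMM or DESeq2 size factors 3 passed, beside 1.87 and 1.83% of all retained genes. The steepest slopes were those of MRPS18A (2.09 ± 0.63, edgeR adjusted p = 0.101), MRPS11 (2.07 ± 0.58, edgeR adjusted p = 0.0721), MRPS25 (2.04 ± 0.80, edgeR adjusted p = 0.233) and MRPS24 (1.91 ± 0.67, edgeR adjusted p = 0.177). Of the genes with a small-subunit symbol and a large-subunit place, MRPS18A had the highest slope and MRPS30 a low one (0.26 ± 0.54, edgeR adjusted p = 0.911). The lowest were MRPS6 at -0.76 ± 0.91, MRPS2 at -0.26 ± 1.07, MRPS12 at -0.09 ± 0.39 and MRPS9 at 0.09 ± 0.85, and MRPS9, MRPS12, MRPS30 and MRPS2 were nearest 0.

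**Figure D4:**
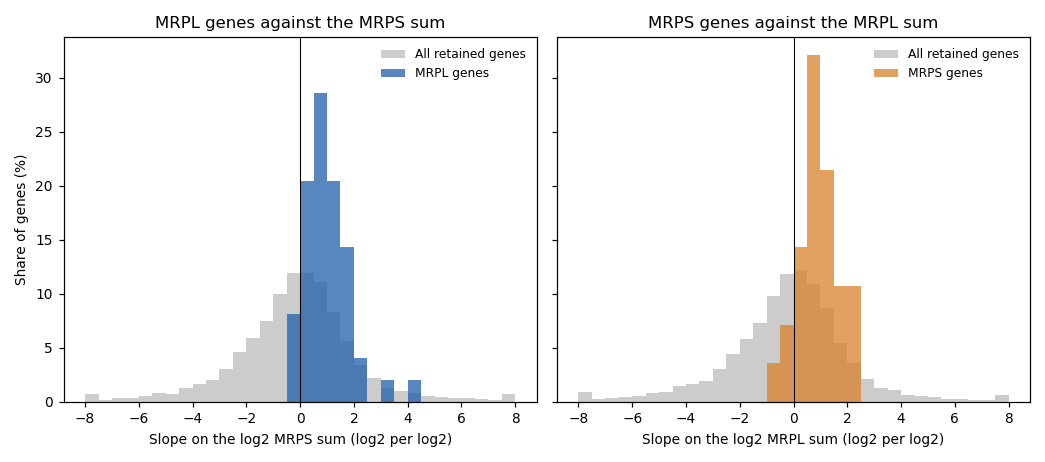
Share of genes (%) by slope on the log2 summed abundance of the other subunit, in bars 0.5 wide, for all 12310 retained genes (grey) and for the 49 MRPL genes (left, blue) or the 28 MRPS genes (right, orange); slopes beyond 8 in either direction are placed in the end bars. The members' slopes centre near 0.90 and 0.75, whereas the grey distribution centres near 0. OXPHOS subunits (medians 1.15 and 1.17) and cytosolic ribosomal proteins (0.79 and 0.78) are not drawn separately.

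Other parts of the mitochondrial translation machinery were compared with the members' sum by their own sums. The 5 mitoribosomal proteins with other symbols were all retained. AURKAIP1 (258.2, 335.9 and 390.9 CPM in the lowest, median and highest pool) and CHCHD1 (185.7, 222.7 and 269.3 CPM) were the most abundant. GADD45GIP1, a large-subunit protein, had a median of 131.7 CPM, and the small-subunit proteins DAP3, which binds GTP, and PTCD3, a pentatricopeptide repeat protein, had medians of 79.5 and 60.1 CPM. These levels fall within the range of the members. Their sum rose with that of the members (rho = 0.71, permutation adjusted p = 0.00048; r = 0.75, permutation adjusted p = 5.33e-05; r = 0.65 without 2 pools; rho = 0.79 in the 18 pools with abundant Y-linked transcripts).

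The mitochondrial translation factors, of which 15 of 16 were retained, summed to between 1268 and 1593 CPM, and their sum also rose with that of the members (rho = 0.66, permutation adjusted p = 0.00108; r = 0.75, permutation adjusted p = 5.33e-05; r = 0.63 without 2 pools). Singly the factors differed, with rho from -0.52 for MTIF2 and -0.32 for MRRF to 0.46 for MTFMT and 0.56 for SLIRP. Several were near 0, such as MTRF1 at 0.05 and MTRF1L at -0.06. SLIRP, an RNA-binding protein that stabilizes mitochondrial mRNA, and TUFM, the elongation factor that delivers aminoacyl-tRNA, were the most abundant at medians of 261.9 and 244.2 CPM. MTIF2, an initiation factor, had a median of 12.8 CPM, and TACO1, an activator of COX1 translation, was not retained. In the fits of single genes, 0 of the 15 passed on either sum in edgeR, with 2 and 4 of positive slope at an unadjusted p of 0.05 or less on the MRPS and the MRPL sum.

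No such relation passed the test for 3 other groups. The 23 retained assembly factors, which modify ribosomal RNA and fit proteins into the particle, summed to between 768.7 and 1097 CPM (rho = 0.22, permutation adjusted p = 0.465; r = 0.26, permutation adjusted p = 0.323). MPV17L2 and YBEY led them with medians of 111.5 and 105.6 CPM, TRMT61B had 4.84 CPM, and ERAL1, a chaperone of the small-subunit rRNA, was not retained at a median of 0.522 CPM. The 17 mitochondrial aminoacyl-tRNA synthetases, which charge tRNAs, summed to between 404.4 and 525.6 CPM (rho = -0.12, permutation adjusted p = 0.714; r = 0.03, permutation adjusted p = 0.866), from IARS2 at a median of 106.6 CPM and FARS2 at 44.0 CPM to SARS2 at 7.39 CPM and EARS2 at 5.34 CPM. The 9 genes of mitochondrial DNA replication and transcription gave rho = 0.20 (permutation adjusted p = 0.491; r = 0.25, permutation adjusted p = 0.333), with SSBP1 at a median of 314.6 CPM, TFAM at 129.9 CPM, TWNK at 4.39 CPM and POLG at 3.58 CPM. Scaling moved 2 of these. With TMM, rho was 0.64 for the assembly factors (permutation adjusted p = 0.00109) and 0.40 for the synthetases (permutation adjusted p = 0.0742), a change of direction.

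The mRNAs that the mitoribosome translates gave no relation past the threshold under column totals. The 13 mitochondrial genome mRNAs summed to between 37528 and 62998 CPM, with COX3 at a median of 13106 CPM and COX1 at 9092 CPM, both of cytochrome c oxidase, and ND4L and ATP8 at 53.3 and 44.4 CPM. Their rho with the members was 0.07 (permutation adjusted p = 0.825; r = 0.06, permutation adjusted p = 0.831). Pool 35, the lowest in these mRNAs, had a high sum of members, 12891 CPM. With TMM the rho was 0.52 (permutation adjusted p = 0.0146), so the call depended on scaling.

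The nuclear-encoded OXPHOS subunits, partners of the proteins that the mitoribosome makes, rose with the members. Their 83 retained genes summed to between 48769 and 68767 CPM, and the relation of sums passed the test (rho = 0.72, permutation adjusted p = 0.00048; r = 0.75, permutation adjusted p = 8e-05; r = 0.73 without 2 pools; rho = 0.82 in the 18 pools with abundant Y-linked transcripts). Singly, 80 of the 83 had a positive rho with the members' sum, with a median of 0.43, beside a median of 0.01 for all 12233 other retained genes. In the fits on the subunit sums, 12 of the 83 passed on the MRPL sum and 5 on the MRPS sum, all with positive slopes (edgeR, adjusted p of 0.05 or less), beside 0.357 and 0.154% of all retained genes. The 5 were NDUFB7, NDUFB9 and NDUFB10 of complex I and COX5B and COX6B1 of complex IV, and each of them also passed on the MRPL sum. These counts rested on few pools. On the MRPL sum 3 passed without pool 32 and 7 without pool 9, and on the MRPS sum 1 passed without pool 32 or 33, 2 without pool 5, 9, 14, 15, 19, 24 or 44, and 9 without pool 28. With TMM 48 and 45 passed, again all with positive slopes, beside 1.87 and 1.38% of all retained genes. ATP5F1B and ATP5MC3 of ATP synthase were the most abundant, at medians of 3195 and 2753 CPM, and the tissue-restricted NDUFA4L2 and COX4I2 were not retained.

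The cytosolic ribosomal proteins, which build the other ribosome of the cell, summed to between 51847 and 70429 CPM over 80 retained genes. Their relation with the members was just short of the threshold by rank (rho = 0.45, permutation adjusted p = 0.0555) and past it on the log2 scale (r = 0.47, permutation adjusted p = 0.0386), and r was 0.23 without 2 pools. With TMM rho was 0.79 (permutation adjusted p = 4e-05). Singly, 69 of the 80 had a positive rho, with a median of 0.30. In the fits, 0 passed on either sum in edgeR, with 23 and 27 of positive slope at an unadjusted p of 0.05 or less on the MRPS and the MRPL sum. RPS25 and RPL8 were the most abundant at medians of 1809 and 1814 CPM, and RPS23 and RPL37 were at 0 as given above.

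**Figure D5:**
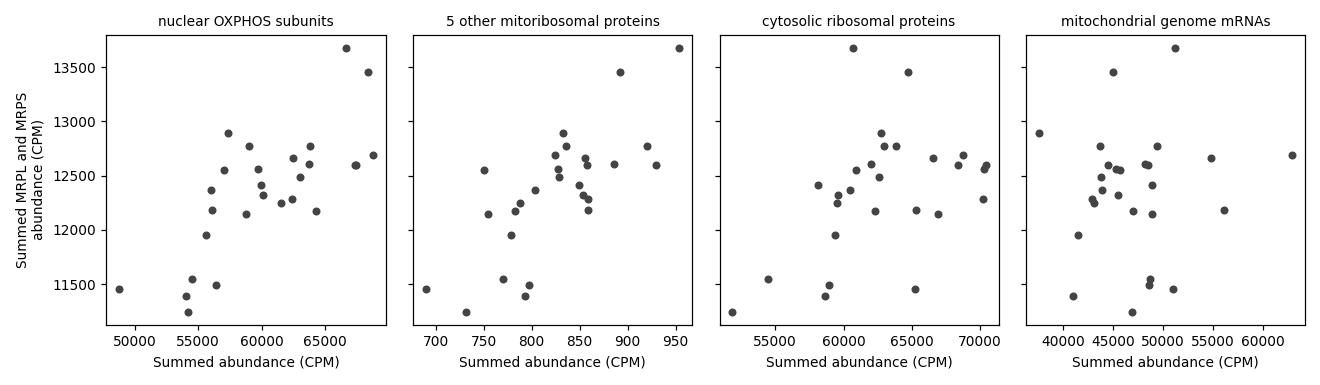
Summed abundance of the members (CPM) against the summed abundance (CPM) of nuclear OXPHOS subunits, of 5 other mitoribosomal proteins, of cytosolic ribosomal proteins and of mitochondrial genome mRNAs, 1 point per pool (n = 27). The first pair of panels slopes upward (rho = 0.72 and 0.71), the next less so (0.45), and the last shows no clear slope (0.07).

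Of genes that are not members, those whose abundance was most like the members' sum over 27 pools were NDUFB9 (rho = 0.77), NHP2 (0.77), NDUFB7 (0.75), CDK5 (0.74), LOC112442405 (0.74), COX5B (0.73), ATP6V1F (0.73) and ZNHIT3 (0.71). NDUFB9, NDUFB7 and COX5B are respiratory chain subunits. NHP2 is a nucleolar protein of box H/ACA particles, ATP6V1F is a subunit of the vacuolar proton pump and CDK5 is a cyclin-dependent kinase. LOC112442405 had a median of only 0.827 CPM. OXPHOS subunits made up 12 of the 50 most alike, and 83 of all 12233 other retained genes.

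Levels of lineage and other cell markers were set beside the members' sum. Trophectoderm markers (rho = -0.26, permutation adjusted p = 0.39), epiblast markers (rho = 0.32, permutation adjusted p = 0.243), hypoblast markers (rho = -0.05, permutation adjusted p = 0.849), leukocyte markers (rho = 0.00, permutation adjusted p = 0.999) and maternal oocyte transcripts (rho = -0.10, permutation adjusted p = 0.757) gave no relation past the threshold, and neither did the total count (rho = 0.14, permutation adjusted p = 0.707). Most of the trophectoderm sum was keratin, with KRT8 at a mean of 18906 CPM and KRT18 at 7830 CPM. Its transcription factors taken singly ran from rho = -0.42 (CDX2) to 0.16 (TFAP2C). The cumulus cell list fell as the members rose (rho = -0.53, permutation adjusted p = 0.0176; r = -0.66, permutation adjusted p = 0.000672; r = -0.51 without 2 pools). Its sum ran from 45 to 543 CPM, highest in pool 9, and most of it was HSD3B1, a steroidogenic enzyme, with a median of 89.4 CPM. The retained genes of the list differed singly. Their rho was -0.51 for HSD3B1, -0.42 for FSHR, -0.30 for STAR, -0.09 for CYP19A1 and -0.07 for TNFAIP6. Among the defining genes of the list PTX3 and AMH were not retained, at medians of 0.666 and 0.122 CPM, and 5 of the 9 listed genes were retained. By rank this relation was no longer past the threshold without the 2 pools (rho = -0.41, permutation adjusted p = 0.143), with TMM (rho = -0.40, permutation adjusted p = 0.0742), with DESeq2 size factors (rho = -0.39, permutation adjusted p = 0.0838) or in the 18 pools with abundant Y-linked transcripts (rho = -0.44, permutation adjusted p = 0.181), and the part of these transcripts in the members' values was not tested.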

How the data were processed

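RNA from pools of 2 blastocysts was amplified by SMART-Seq v4 3′ DE chemistry. The authors trimmed reads with fastp, used STAR for alignment to ARS-UCD2.0 and assigned them to genes with featureCounts, and they deposited raw counts of 32637 genes. Tool versions, the annotation release and the strand setting are not given in the sources used here. Counts are reads and not molecules.

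CPM was calculated from column totals, and genes at 1 CPM or more in 12 pools were retained. The 27 columns were matched to pools by number, and no pair of pools agreed within sampling noise (lowest chi-square per degree of freedom 23.9 over 351 pairs). The labels do not say which pools share animals or a fertilization replicate, so the permutations and fits treated the 27 pools as independent. According to the paper the embryos came from several fertilization replicates and from both follicular fluids. Pools of the same replicate or treatment may be alike, so p-values can be too small, and they refer to these pools only. The 78 members matched the RefSeq table of ARS-UCD2.0 by symbol, and the 13 mitochondrial mRNAs by locus tag. Sums were compared by Spearman and Pearson correlation with 100000 two-sided permutations in scipy 1.17.1, with Benjamini-Hochberg adjustment over 16 relations. Slopes were fitted with edgeR 4.0.16 (quasi-likelihood F test, column totals, adjusted over all retained genes, called at an adjusted p of 0.05 or less). DESeq2 1.42.0 was an alternative. The edgeR fit was checked on simulated counts.

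Named members were the 8 highest and 6 lowest by mean, the 4 with the highest and the 4 with the lowest CV beyond counting error, the 4 steepest slopes, the 4 lowest and the 4 nearest 0 in each fit, those of differing symbol and place, and MRPS36. MRPL40, MRPL46 and the MRPS6 range were named after their values were seen. From the other lists, the highest and lowest 2 genes were named. The members and the lists were chosen with earlier results of these data known. The symbol pattern for cytosolic ribosomal proteins also matched 11 genes that are not ribosomal proteins (RPS6K kinases and RPS19BP1), which were left out, and keeping them was an alternative added later. No sequences were used here.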

Additional observations from a re-analysis of the deposited data

How the results depend on the processing

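The ratio of subunit sums moved to 2.31 with genes placed by structure. The SD of the members' sum over pools rose from 579 to 818 CPM with TMM and to 832 CPM with DESeq2 size factors. For MRPL genes against the MRPS sum, the count called was 6 with TMM, 6 with DESeq2 size factors, 4 without the filter, 4 with the log2 total as a covariate, 4 with the DESeq2 Wald test and 0 to 3 when each pool was left out in turn. It was 3 without pool 28, 31, 35 or 41, beside 38, 37, 25 and 38 positive calls over all 12310 retained genes. It was 2 without pool 1 or 42, beside 28 and 31, and 1 without pool 13, beside 20. For MRPS genes against the MRPL sum it was 3, 3 and 2 with TMM, DESeq2 size factors and DESeq2, and 0 to 0 without single pools. Over all retained genes, positive calls on the MRPS sum were 19, with 170 under TMM, 94 by DESeq2 and 3 without pool 32. On the MRPL sum they were 44, with 230, 114 and 7 in the same order. Positive calls on the MRPS sum were 350 of 24638 genes without the filter and 37 of 12310 with the log2 total. Of 16 relations, 5 passed, and between 4 and 7 under the alternatives. Relations that changed sign were the synthetases (0.0340 by Pearson, 0.400 with TMM, 0.396 with size factors, 0.0382 in the 18 pools high in Y-linked transcripts), trophectoderm (0.288 with TMM, 0.286 with size factors), hypoblast (0.124 by Pearson, 0.0960 in the 18 pools), leukocyte (-0.0586 by Pearson, -0.0574 with TMM, -0.0751 with size factors, -0.0402 in the 18 pools) and oocyte (0.0114 in the 18 pools) lists; none of them passed the threshold in either direction. TMM and size factors multiply every sum of a pool by the same factor; the cause of each change was not tested. No paired analysis was possible because the labels put all pools in 1 group and pool numbers pair nothing. The 18-pool alternative and the OXPHOS counts without single pools were chosen after seeing the data. Treatment, fertilization replicate and embryo sex were not assigned. A proportional slope of a single gene on the MRPS sum was not detectable in simulation, for genes that were not drawn from the members.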

Other observations

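Genes that ran opposite to the members' sum were looked up after their values were seen and are given as values over 27 pools, with no test. PLSCR2, a phospholipid scramblase, had the lowest Spearman rho (-0.82) and lay between 33.4 and 99.9 CPM. IKBIP followed (rho = -0.78, 14.2 to 55.8 CPM), then LOC101905127 (rho = -0.76, 13.4 to 37.8 CPM), ARPC1B, a subunit of the actin-nucleating Arp2/3 complex (rho = -0.75), and DSC2, a desmosomal cadherin (rho = -0.74).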
